A study of Bos taurus with 34 samples.

Results

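Peptide signals and their receptors are described here in the lining of the bovine oviduct and uterus. The genes are PENK, NTS, NPPC, NPR2, ADM, OXTR and QRFPR, and they were chosen by their symbols, with earlier results of the same libraries known. Of these 7 genes, 5 had a row in a table of 38568 features: PENK, NTS and NPPC, which encode secreted peptides, and OXTR and QRFPR, which encode receptors. NPR2, the receptor of C-type natriuretic peptide, and ADM, the precursor of adrenomedullin, had no matched row and were not analysed here. A gene with several rows was read from the one with the most counts on average.

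The libraries came from 5 nulliparous Holstein heifers (10872, 10882, 11033, 11070 and 11110), all synchronised with a progesterone insert and sampled on day 2 after ovulation. In each heifer the lining was taken from the ampulla, which is the wide upper part of the oviduct, and from the upper and mid uterine horn. These sites were sampled on the side of the ovulation (ipsilateral) and on the other side (contralateral), and the uterine body was sampled once. The 34 libraries thus fall into 7 groups of 5 heifers, apart from the ipsilateral upper horn with 4, since that of heifer 11110 was not analysed here. The groups share the breed, the parity, the day and the synchronisation, and no group was left without it.

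Neuropeptides such as enkephalin and neurotensin are cut from larger precursors and act on G protein-coupled receptors, in nerves and also in epithelia and smooth muscle. Natriuretic peptides act on receptors that make cyclic GMP. The oxytocin receptor is best known in the ruminant endometrium, where it takes part in the release of prostaglandin that ends the life of the corpus luteum.

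Total counts ran from 11619486 to 30412782 per library, with a median of 20610133. Levels are given in CPM, each count divided by the library's total and put on a common scale with TMM-adjusted totals. A level compares 1 gene between libraries, never 1 gene with another, since transcript lengths were not used. The labels were checked against marker genes. Summed markers of ciliated cells lay at 946 to 1426 CPM in the ampulla and at 52.7 to 368 CPM in the uterus. The stroma list summed to 49.6 to 142 CPM in the ampulla, where DCN, LUM, PDGFRA and PDGFRB were at 0, and to 40440 to 92390 CPM in the uterus. Those of endothelium summed to 3.74 to 11.4 CPM in the ampulla, with PECAM1, CDH5, CLDN5, VWF and EGFL7 at 0, and to 537 to 1193 CPM in the uterus. Markers of neurons and neuroendocrine cells summed to 7.004 to 26.6 CPM in the ampulla and to 27.9 to 119 CPM in the uterus, and UCHL1 and SCG2 were at 0 in the ampulla, the mid horn and the body. Of the 7 tested markers of this list edgeR called 2 higher and 4 lower in the ampulla, beside 64.9% of all 17241 transcripts called. Of all these calls 5062 were higher and 6136 lower, so nothing is read from the marker calls. The part of these cell types in the differences below was not tested. Rows are single transcripts, and how reads shared by transcripts of 1 gene were counted is unknown, so a gene listed at 0 may still be expressed: PTPRC, a marker of all leukocytes, was at 0 in the ampulla, mid horn and body. RefSeq lists 1 transcript for PENK, NTS and QRFPR, 2 for OXTR, 3 for NPPC and ADM and 7 for NPR2. In bulk tissue, fewer cells of a type and less RNA per cell cannot be told apart.

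The contralateral mid horn of heifer 10882 stood apart. It held KRT5 at 453.6 CPM, against 0.254 to 1.59 CPM in the remaining 4 uterine samples from 10882 and a mean of 960.0 CPM in its ampulla. MSLN was at 792.6 CPM there against 5.53 to 17.3 CPM, and LRCOL1 at 23.2 CPM against 0 to 0.0839 CPM. These genes were picked from a list of 7 markers of oviduct epithelium, the rest of which are not given for this library. The part of these genes in the values below was not tested. The contralateral upper horn of heifer 11033 (16049 features with a count) and the contralateral ampulla of heifer 11070 (15773) held the fewest features, against 19348 to 26676 in the other libraries. Leaving out these 3 libraries changed the call of 1 value along the uterus for the 5 genes, PENK in mid horn against body.

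The ampulla and the endometrium differed in each of the 5 measured genes. PENK, NPPC, OXTR and QRFPR were lower in the ampulla, and NTS was higher. The genes were proposed with this contrast in view, so their values here are a description and carry no test. Across all transcripts, 64.9% of the 17241 transcripts tested differed between ampulla and endometrium, and nothing is read from that share for these genes.

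**Figure D1:**
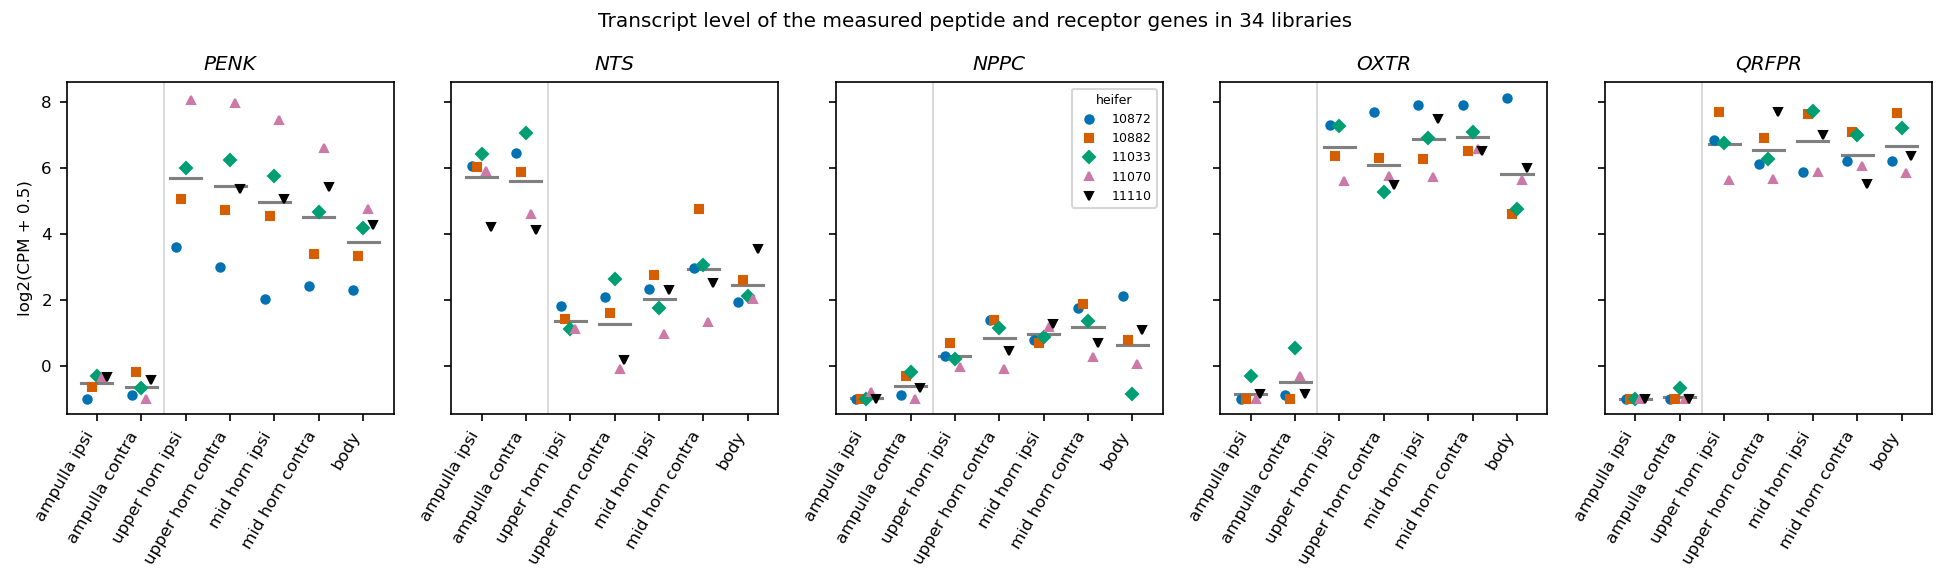
Level of each measured gene by site, as log2(CPM + 0.5) on the vertical axis, with 1 point per library, a symbol per heifer and a bar at the group mean. The grey line parts ampulla from uterus: PENK, NPPC, OXTR and QRFPR sit low on its left and NTS sits high there, and the NTS point of heifer 10882 in the contralateral mid horn reaches 26.9 CPM.

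PENK encodes proenkephalin, the precursor of the enkephalins, which are opioid peptides. In the ampulla its level was 0.0523, 0.380, 0.131, 0 and 0.259 CPM on the contralateral side in heifers 10872, 10882, 11033, 11070 and 11110. The ipsilateral ampulla gave 0, 0.150, 0.311, 0.303 and 0.308 CPM in the same order of heifers. All 10 ampulla libraries lay under the lowest uterine library. From the summed counts, 34 in the ampulla and 27705 in the endometrium, the endometrial level was 274 times higher (95% interval 196 to 395, counting error only). The fitted difference was -7.40 ± 0.38 on the log2 scale, or -6.81 without heifer 11070.

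In the uterus PENK was lowest in the body, with 4.46, 9.75, 17.7, 26.9 and 18.9 CPM in that order. The contralateral mid horn gave 4.89, 10.03, 25.2, 97.9 and 42.8 CPM, and the ipsilateral mid horn 3.62, 23.2, 54.0, 174 and 32.9 CPM. The upper horn gave 7.54, 26.2, 75.9, 249.5 and 40.7 CPM on the contralateral side, and 11.8, 33.3, 64.2 and 266 CPM in the 4 heifers with an ipsilateral library. Heifer 11070 was the highest and heifer 10872 the lowest in each uterine group, so the groups overlapped widely across heifers.

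Within heifers the order was steadier than between them. The upper horn, as the mean of its sides, held 2.17, 3.05, 3.95, 9.59 and 2.16 times as much PENK as the body in heifers 10872, 10882, 11033, 11070 and 11110. The mid horn held 0.954, 1.70, 2.23, 5.06 and 2.01 times as much as the body. The order upper horn, mid horn, body held in 4 of 5 heifers, and in heifer 10872 the mid horn was slightly below the body. Averaged over heifers, the upper horn stood at 81.6 ± 100.9 CPM (SD, n = 5), the mid horn at 46.9 ± 52.0 and the body at 15.5 ± 8.68.

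**Figure D2:**
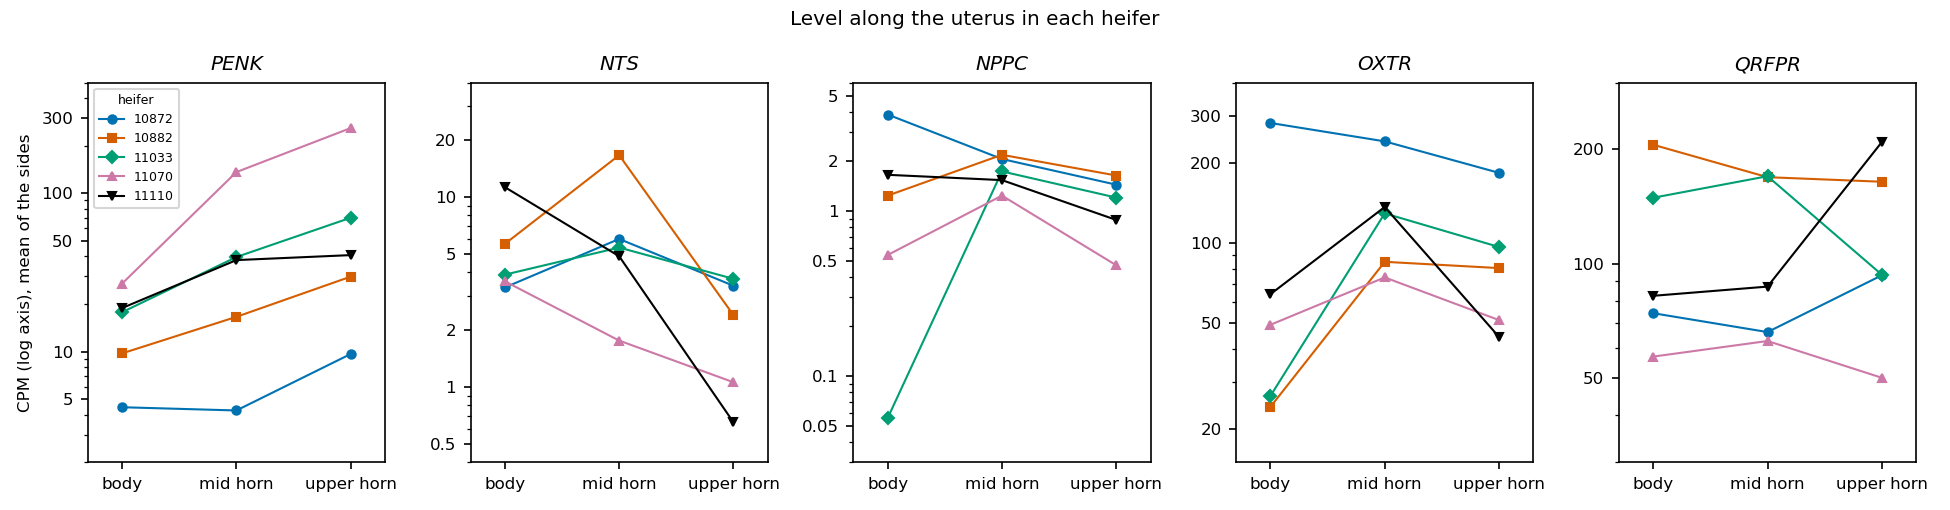
CPM on a log axis along the uterus, from the body to the upper horn, with 1 line per heifer and the sides averaged; the axes differ in range between genes. The PENK line ends higher in the upper horn than in the body in each of the 5 heifers. For NTS, NPPC, OXTR and QRFPR the upper horn lay above the body in some heifers and below it in others.

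With the heifer as a block, PENK was higher in the upper horn than in the body by 1.86 ± 0.36 on the log2 scale (SE), with an edgeR quasi-likelihood adjusted p of 0.0489 over all transcripts. It was higher in 5 of 5 heifers. PENK was the only measured gene of the 5 that was called in this comparison, in which 0.0232% of all transcripts were called. These were 4 transcripts, and the other three, HOXD13, HOXA13 and LOC101907241, were lower in the upper horn. Since PENK was proposed with this call known, it is no independent result. The call sat near the threshold: the adjusted p was 0.0674 with DESeq2 size factors, 0.104 with only the compared groups in the fit and 0.619 without the block, and it ran from 0.138 to 0.492 when each heifer was left out in turn, with log2 values of 1.54 to 2.05. Over the other alternatives the log2 value ran from 1.79 to 2.48, the highest without the block. The call held with DESeq2's own test (adjusted p = 0.00108), without the 3 libraries that stood apart (0.00342, log2 1.79) and with no filter on low counts (9.16e-08). Dropping the filter also raised the calls over all transcripts in this comparison, from 4 to 150.

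Markers of other cell types were read beside these PENK values. Those of smooth muscle summed to 257 to 4729 CPM in the upper horn, 258 to 986 CPM in the mid horn and 331 to 596 CPM in the body. EdgeR called 0 of 9 tested in upper horn against body (4 at an unadjusted p under 0.05, 0 by DESeq2) and 0 in upper against mid horn (7 and 3). The median log2 difference of the smooth muscle markers was 0.52 and 1.17 in these, beside -0.057 and 0.052 over all transcripts. Of all transcripts, 0.0232% and 0.0174% were called in these comparisons. Epithelium markers were called higher in the mid horn than in the body for 3 of 8, with a median log2 difference of 0.81. Of all 17241 transcripts, 767 (4.45%) were called there, 91 of them higher in the mid horn, with a median of -0.064. The part of these markers in the differences of PENK and the other genes along the uterus was not tested.

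The steps on either side of the mid horn did not pass the test for PENK. Mid horn against body gave 0.97 ± 0.34 on the log2 scale (edgeR adjusted p = 0.0706), with 4 of 5 heifers higher. It passed without heifer 10872 (adjusted p = 0.0471), without the 3 libraries that stood apart (0.0389), with only the compared groups (0.0337) and with no filter on low counts (0.00707). Upper horn against mid horn gave 0.89 ± 0.27 (edgeR adjusted p = 0.656), with 5 of 5 heifers higher, and passed with no filter on low counts (0.0123).

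Within the uterus, PENK varied more between heifers than between site groups. The mean over all uterine sites was 6.13, 18.7, 42.5, 140.3 and 32.5 CPM in heifers 10872, 10882, 11033, 11070 and 11110, which is 22.9-fold from lowest to highest. The heifer took 76.1% of the variance of log2(CPM + 0.5) over the 24 uterine libraries, and the site group 17.1%.

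NTS encodes the precursor of neurotensin and neuromedin N, peptides known from the gut and the brain. It was the only measured gene of the 5 with its high levels in the ampulla, with 87.3, 59.2, 132.8, 23.8 and 16.9 CPM on the contralateral side. The ipsilateral ampulla gave 66.9, 64.9, 85.0, 60.1 and 18.0 CPM. Heifer 11110 was the lowest on both sides.

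In the upper horn NTS was at 3.79, 2.54, 5.70, 0.443 and 0.650 CPM contralaterally and at 3.02, 2.22, 1.70 and 1.67 CPM ipsilaterally. The mid horn gave 7.43, 26.9, 7.89, 2.05 and 5.28 CPM contralaterally and 4.58, 6.28, 2.93, 1.46 and 4.46 CPM ipsilaterally. The body gave 3.34, 5.66, 3.89, 3.59 and 11.3 CPM. The contralateral mid horn of heifer 10882, at 26.9 CPM, was the single uterine library inside the ampulla range. It is the library with high KRT5, MSLN and LRCOL1 described above, and whether its NTS level has the same source was not tested.

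Over heifers NTS averaged 61.5 ± 34.7 CPM in the ampulla (SD, n = 5) against 4.90 ± 2.23 CPM over the uterus. The summed counts, 11081 in the ampulla and 2595 in the endometrium, gave an endometrial level of 0.0786 of that in the ampulla (95% interval 0.0753 to 0.0820, counting error only). The fitted difference was 3.79 ± 0.32 on the log2 scale, or 4.02 without the 3 libraries that stood apart.

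Within the uterus NTS had its lowest levels in the upper horn. It was lower there than in the mid horn by -1.41 ± 0.41 on the log2 scale (edgeR adjusted p = 0.624), and lower in 5 of 5 heifers. Without the 3 libraries that stood apart the value was -1.31 (edgeR adjusted p = 0.776). Upper horn against body gave -1.55 ± 0.49 (edgeR adjusted p = 0.428), with 4 of 5 heifers lower. Both passed only with no filter on low counts, at adjusted p = 1.04e-05 and 0.000281.

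NPPC encodes C-type natriuretic peptide, the ligand of the NPR2 receptor. Its counts were low throughout, with 16 counts over the 10 ampulla libraries and 762 over the 24 uterine ones. In the ampulla it was at 0.0523, 0.317, 0.393, 0 and 0.129 CPM contralaterally, and ipsilaterally at 0 except for heifer 11070 with 0.0866 CPM.

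The upper horn gave 2.15, 2.15, 1.74, 0.443 and 0.883 CPM of NPPC contralaterally and 0.732, 1.13, 0.669 and 0.495 CPM ipsilaterally. The mid horn gave 2.89, 3.24, 2.11, 0.712 and 1.12 CPM contralaterally and 1.24, 1.14, 1.36, 1.77 and 1.96 CPM ipsilaterally. The body had the widest spread, with 3.84, 1.24, 0.0556, 0.541 and 1.66 CPM. The body library of heifer 11033 held 1 count of NPPC and lay inside the ampulla range, and the other uterine libraries lay above it.

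The endometrial level of NPPC was 15.98 times that of the ampulla (95% interval 9.78 to 28.1, counting error only), and the fitted difference was -4.24 ± 0.56 on the log2 scale, or -5.34 without heifer 11070. NPPC was lower in the upper than in the mid horn in 5 of 5 heifers, by -0.82 ± 0.45 on the log2 scale (edgeR adjusted p = 0.790). Against the body the upper horn gave -0.42 ± 0.55 (edgeR adjusted p = 0.757) and the mid horn 0.40 ± 0.53 (adjusted p = 0.660).

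OXTR encodes the oxytocin receptor. The ampulla libraries held 28 counts of it in all, of which heifer 11033 gave 15 on the contralateral and 6 on the ipsilateral side. Its ampulla levels were 0.0523, 0, 0.983, 0.320 and 0.0647 CPM contralaterally, and 0, 0, 0.311, 0 and 0.0616 CPM ipsilaterally.

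The uterine body gave 282, 24.2, 26.6, 49.3 and 64.2 CPM of OXTR in heifers 10872, 10882, 11033, 11070 and 11110. The mid horn gave 241.3, 92.5, 137.3, 95.1 and 91.6 CPM contralaterally and 239.7, 77.4, 121.0, 53.3 and 181.2 CPM ipsilaterally. The upper horn gave 208.5, 78.1, 38.2, 53.9 and 44.4 CPM contralaterally and 158.0, 82.7, 154.8 and 48.7 CPM ipsilaterally. Heifer 10872 had the highest level in each uterine group, and no uterine library came near the ampulla range.

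From the summed counts the endometrial level of OXTR was 708 times that of the ampulla (95% interval 490 to 1066, counting error only), and the fitted difference was -9.34 ± 0.54 on the log2 scale. It was -11.22 without heifer 11033, -8.69 without heifer 10872 and -8.54 with the gene's rows summed. The mid horn held 0.853, 3.50, 4.85, 1.51 and 2.13 times the OXTR level of the body in the 5 heifers. The fit gave 0.87 ± 0.44 on the log2 scale (edgeR adjusted p = 0.194), and passed with only the compared groups (adjusted p = 0.0379) and with no filter on low counts (0.00843). Upper horn against mid horn was -0.49 ± 0.36 (edgeR adjusted p = 0.792), lower in 5 of 5 heifers, and upper horn against body was 0.37 ± 0.45 (adjusted p = 0.735). The heifer took 51.5% of the variance over uterine libraries and the site group 20.4%.

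QRFPR encodes the receptor of the RFamide peptide QRFP, which is known for its part in feeding. Of the 10 ampulla libraries 9 held no count, and the contralateral ampulla of heifer 11033 held 2, or 0.131 CPM. Each uterine library held QRFPR at 45.9 CPM or more, so the ranges of ampulla and uterus were far apart.

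The body gave 74.1, 205.7, 149.2, 57.0 and 82.4 CPM of QRFPR. The mid horn gave 74.1, 137.8, 129.5, 66.2 and 45.9 CPM contralaterally and 58.1, 200.2, 210.5, 59.0 and 128.3 CPM ipsilaterally. The upper horn gave 69.9, 120.4, 77.8, 50.8 and 209.1 CPM contralaterally and 116.6, 208.5, 109.3 and 49.4 CPM ipsilaterally. The groups overlapped, and their order differed between heifers.

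The ratio of endometrium to ampulla for QRFPR was 9974, with a 95% counting interval from 2761 to 82360 that reflects the 2 ampulla counts. Both came from 1 library of heifer 11033, and without that heifer the ampulla held 0 counts, so no fitted value is given. QRFPR had the smallest fitted differences along the uterus, at 0.08 ± 0.23 for upper against mid horn (edgeR adjusted p = 0.938), 0.06 ± 0.27 for upper horn against body (0.939) and -0.02 ± 0.27 for mid horn against body (0.969), all on the log2 scale. The site group took 4.65% of its variance over the uterine libraries and the heifer 61.1%.

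**Figure D3:**
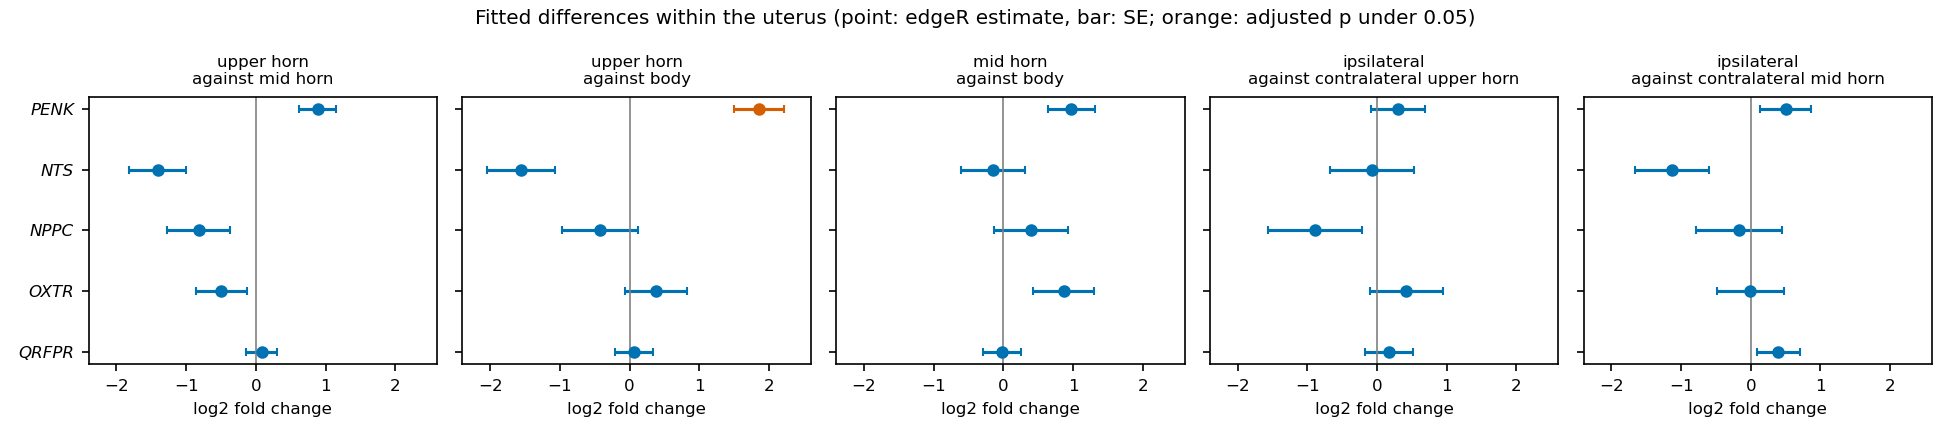
Fitted log2 fold change of each measured gene in 5 comparisons within the uterus, with the edgeR estimate as a point and its SE as a bar; orange marks an adjusted p under 0.05. PENK in the upper horn against the body, at 1.86 ± 0.36, is the orange point, and the others span 0 or miss the threshold.

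No measured gene other than PENK was called along the uterus. In upper against mid horn edgeR called 0 of the 5, against 0.0174% of all transcripts; 2 of them, NTS and PENK, had an unadjusted p under 0.05, and DESeq2 called 0. In mid horn against body edgeR again called 0, against 4.45% of all transcripts, with 1 of them, PENK, at an unadjusted p under 0.05 and 0 called by DESeq2. In the order of mean levels over sites, neighbouring sites overlapped for each gene except at the step from uterus to ampulla, and for NTS the ranges overlapped there too through the library of heifer 10882.

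The second question was whether the side of the ovulation mattered. In the mid horn NTS was lower on the ipsilateral side in 5 of 5 heifers, by -1.13 ± 0.53 on the log2 scale, with an edgeR adjusted p of 1.0 and an unadjusted p of 0.042. Without the 3 libraries that stood apart the value was -0.53 (edgeR adjusted p = 1.0). PENK gave 0.50 ± 0.37 there, higher ipsilaterally in 3 of 5 heifers, OXTR -0.01 ± 0.48, QRFPR 0.39 ± 0.31 and NPPC -0.17 ± 0.62.

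In the upper horn, with 4 heifers, NPPC gave -0.89 ± 0.67 on the log2 scale (edgeR adjusted p = 0.818). PENK gave 0.30 ± 0.39 (edgeR adjusted p = 0.904), OXTR 0.42 ± 0.52 (0.901), QRFPR 0.17 ± 0.35 (0.954) and NTS -0.07 ± 0.60. In the ampulla NTS gave 0.11 ± 0.51 (edgeR adjusted p = 0.970), higher ipsilaterally in 3 of 5 heifers. The other 4 measured genes had too few ampulla reads for a fitted side difference to be read.

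None of the 5 genes was called for side at any site by edgeR or by DESeq2. The share of all transcripts called was 0.0174% in the ampulla (IGFBP3, TIMP2 and SPON2), 0.0058% in the upper horn (ERRFI1) and 0% in the mid horn, where 513 transcripts had an unadjusted p under 0.05 and DESeq2 called 21. Of the 5 genes, the unadjusted p was under 0.05 for 1 in the ampulla, NPPC, for 0 in the upper horn and for 1 in the mid horn, NTS. The differences between sites in the side effect were tested as interactions: edgeR called 0% of all transcripts in upper horn against ampulla, in mid horn against ampulla and in upper against mid horn. Unadjusted p-values were under 0.05 for 724, 765 and 252 transcripts in these, DESeq2 called 1, 9 and 1, and no measured gene was among the calls.

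The receptors, ligands, carriers and processing enzymes around these peptides were described from a list of 134 genes, also chosen with earlier results known. Of these 111 had a row and 60 had enough counts to be tested. Between ampulla and endometrium edgeR called 13 higher and 30 lower in the ampulla, which is 71.7% of those tested beside 64.9% of all transcripts. The median log2 difference of the 60 was -0.87, beside -0.18 over all transcripts. Some partners, such as AVP, MC4R and PTH1R with 0 ampulla counts, had enough counts only through the uterus. Others, such as UCN3, had them through the ampulla. Nothing is therefore read from this share or this median for the partners.

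Of the 8 listed opioid partners 4 had a row and 3 were tested. EdgeR called 2 of these lower in the ampulla, beside 64.9% of all transcripts called, and nothing is read from that count. OPRD1, the delta opioid receptor that binds enkephalins, stood at 0.439 CPM in the ampulla against 0.858 CPM in the endometrium, and was lower in the ampulla by -1.02 ± 0.35 on the log2 scale (edgeR adjusted p = 0.0109), or by -0.78 without heifer 10872 (adjusted p = 0.0631). OGFR, the opioid growth factor receptor that binds Met-enkephalin, stood at 114 and 116 CPM and did not pass the test (edgeR adjusted p = 0.832). OPRM1 and OPRK1, the mu and kappa receptors, were not analysed here.

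For neurotensin, 2 of the 4 listed partners were tested, and both were called higher in the ampulla. Of all 17241 transcripts 64.9% were called, and 5062 of these calls were higher, so no direction shared with NTS is read. NTSR2 entered the test mainly on its ampulla counts, 128 against 72 in the endometrium. NTSR2, a neurotensin receptor, stood at 0.739 CPM in the ampulla against 0.138 CPM in the endometrium (2.31 ± 0.43 on the log2 scale, edgeR adjusted p = 2.73e-05). SORL1, a sorting receptor of the same family as sortilin, stood at 736 and 162 CPM (2.18 ± 0.14). NTSR1, the high-affinity receptor, had 0 counts in the ampulla and 2 in the endometrium, and SORT1, which encodes sortilin, had 0 and 1.

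Among the natriuretic partners the receptors went in opposite directions. NPR3, the clearance receptor that removes natriuretic peptides, stood at 8.38 CPM in the ampulla and 375 CPM in endometrium (-5.43 ± 0.41 on the log2 scale), with 219.8 CPM in the upper horn, 520.5 in the mid horn and 385.8 in the body. NPR1, the receptor of the atrial and brain peptides, was higher in the ampulla (85.5 against 36.4 CPM, 1.23 ± 0.12). CORIN, the protease that activates the atrial peptide, was higher in the ampulla too (3.75 against 0.142 CPM, 5.02 ± 0.44), while the atrial peptide gene NPPA had 38 counts in the ampulla and 3 in the endometrium. CORIN entered the test mainly on its ampulla counts, 695 against 84 in the endometrium, so its direction is not read as a result. NPPB, the brain peptide gene, had 0 counts in the ampulla and 72 in the endometrium, at least 8.06-fold higher there with a floor of 3 counts over the group.

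Adrenomedullin's receptor is built from CALCRL and a RAMP protein, and CALCRL and RAMP1 were not analysed here. RAMP3 stood at 0.228 CPM in ampulla and 42.2 CPM in endometrium (-7.45 ± 0.25 on the log2 scale), and ACKR3, a receptor that takes up adrenomedullin and chemokines, at 0.576 and 48.6 CPM (-6.36 ± 0.28). RAMP3 passed the count filter through the uterus, with 42 counts in the ampulla and 21341 in the endometrium. The direction of RAMP3 is therefore not read as a result. RAMP2 had 0 counts in the ampulla and 95 in the endometrium, at least 10.6-fold higher there. The endothelium markers given above were also near 0 in the ampulla, and their part in these values was not tested.

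Of the oxytocin and vasopressin partners only OXT and AVP had enough counts to be tested. Both passed the count filter through the uterus, with 14 counts in the ampulla and 1475 in the endometrium for OXT. Their lower ampulla level is therefore not read as a direction of the family. OXT, the ligand of OXTR, stood at 0.0778 CPM in ampulla and 3.03 ± 1.94 CPM in the endometrium (SD, n = 5), a difference of -5.07 ± 0.57 on the log2 scale. AVP, the vasopressin gene, had 0 counts in the ampulla and 222 in the endometrium, at least 24.8-fold higher there. The vasopressin receptors were untested, with 5 counts in the ampulla and 79 in the endometrium for AVPR1A, 5 and 3 for AVPR1B and 5 and 4 for AVPR2, and LNPEP, the enzyme that degrades oxytocin, was not analysed here. QRFP, the ligand of QRFPR, had 0 counts in the ampulla and 8 in the endometrium.

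**Figure D4:**
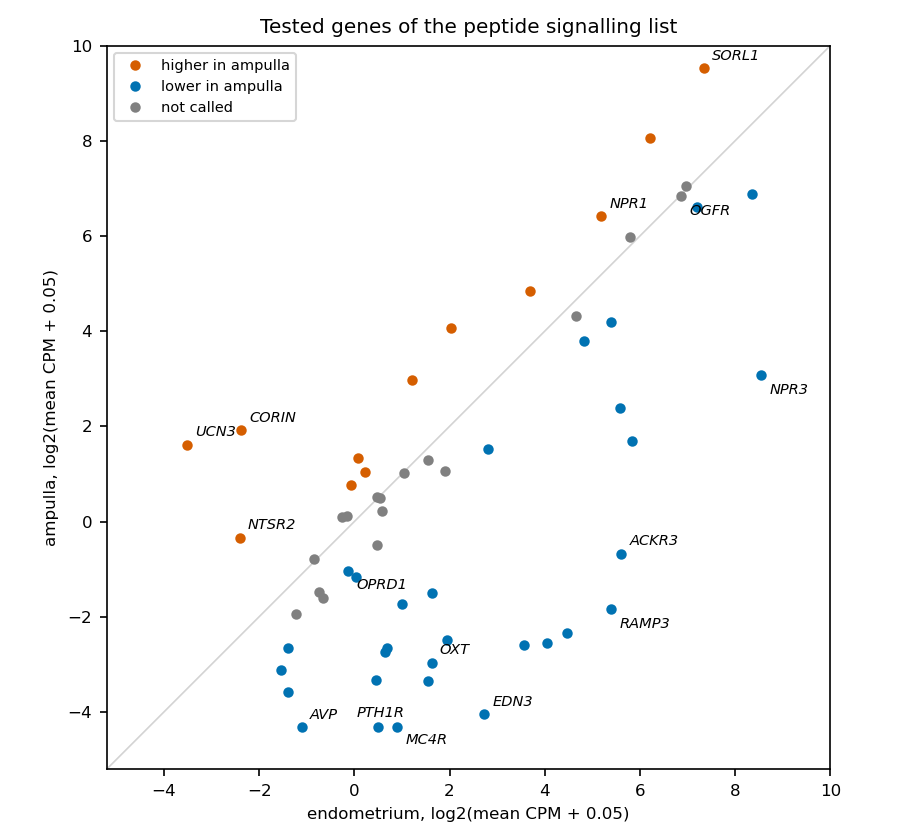
Each point is 1 of the 60 tested genes of the peptide signalling list, placed by log2(mean CPM + 0.05) in endometrium (horizontal) and ampulla (vertical), with the line of equal levels. Orange points are the 13 genes higher in the ampulla and blue points the 30 lower by edgeR; NPR3, RAMP3 and ACKR3 lie far below the line and SORL1, CORIN and UCN3 above it.

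Outside the direct partners, the called genes named were UCN3, higher in the ampulla, and EDN3, MC4R and PTH1R, lower there. EDN3, MC4R and PTH1R passed the count filter through the uterus, and UCN3 through the ampulla, with 506 counts there and 23 in the endometrium. No common direction is therefore read from these genes. UCN3, the stress peptide urocortin 3, stood at 3.01 CPM in ampulla and 0.0374 CPM in endometrium (7.59 ± 0.65 on the log2 scale). EDN3, which encodes endothelin 3, had 2 counts in the ampulla, and its endometrial level was 605 times higher (95% counting interval 167 to 4995). MC4R, a melanocortin receptor, and PTH1R, the parathyroid hormone receptor, had 0 counts in the ampulla and were at least 112-fold and at least 68.9-fold higher in the endometrium.

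Along the uterus the partners gave few calls. Mid horn against body gave 2 of 60, or 3.33% beside 4.45% of all transcripts, and both were lower in the mid horn, as were 676 of the 767 calls over all transcripts. Of the 60, 7 had an unadjusted p under 0.05 and DESeq2 called 4, and over the alternatives the count ran from 0 to 4. ANPEP, an aminopeptidase that degrades enkephalins and other peptides, stood at 0.573 CPM in the mid horn and 2.08 CPM in the body (-1.86 ± 0.51 on the log2 scale, edgeR adjusted p = 0.0428). PTH1R stood at 0.633 and 1.90 CPM (-1.72 ± 0.48, edgeR adjusted p = 0.0463). Without heifer 10882, 11033 or 11070 neither passed (ANPEP adjusted p 0.113 to 0.367, PTH1R 0.128 to 0.367), nor did either without the block (0.155 and 0.172). In upper against mid horn edgeR called 0 of the 60, with 11 at an unadjusted p under 0.05, 0 by DESeq2 and 3 with no filter on low counts, and in upper horn against body 0, with 6 and 0. For side edgeR and DESeq2 called 0 at each site, with 7, 5 and 2 at an unadjusted p under 0.05 in ampulla, upper horn and mid horn.

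The genes most like each measured gene were found by Pearson's r of log2(CPM + 0.5) over 9012 genes. These values describe libraries that share heifers and sites, and no p is given. Over all 34 libraries, where the step from ampulla to uterus dominates, PENK was most like NRXN2 (0.927), CCL16 (0.927) and FGF11 (0.926), and NTS most like KRT23 (0.911), BNIPL (0.906) and CD109 (0.906). NPPC was most like CD48 (0.875), VCAM1 (0.867) and BATF (0.867). OXTR followed MSTN (0.983), CFTR (0.982) and COLEC12 (0.978), and QRFPR followed SNAI2 (0.988), RHOJ (0.986) and TMEM35A (0.986).

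Over the 24 uterine libraries alone the nearest genes were others, except for CFTR. OXTR was closest to ERG28 (0.959), CFTR (0.941), a chloride channel, and FUCA1 (0.929). PENK was closest to KCNE5 (0.803), CHTF18 (0.798) and NCCRP1 (0.770), and QRFPR to genes that include ANXA5 (0.783) and CXCR3 (0.750). NPPC was closest to B2M (0.816), ZNF614 (0.799) and ERAP2 (0.783), genes of which B2M and ERAP2 take part in antigen presentation. NTS had the weakest likeness, with NFKBIA (0.71), NXPE2 (0.664) and CDH2 (0.658).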

How the data were processed

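RNA was extracted from the lining on columns after bead homogenisation and made into directional libraries, per the labels' protocols. Raw read counts per annotated feature were what the authors deposited, without normalisation. The submitters' processing notes name cutadapt, STAR 2.7.9a, HTSeq and SAMtools. Not given in the sources used here were the genome build, annotation, strand setting and counting mode, so reads shared by overlapping or antisense transcripts could fall to either. Features were matched to RefSeq symbols (assembly ARS-UCD2.0, names only), and 26362 of 38568 matched. Each member is read from its row with the highest mean count.

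All 34 libraries entered 1 edgeR 4.0.16 quasi-likelihood fit (R 4.3.3), with TMM scaling, edgeR's filter on low counts, the 7 groups and the heifer as a block. The numbers pair the samples because same-numbered libraries come from 1 heifer: their deviations correlated by a median of 0.25, against -0.06 between heifers. p-values were adjusted by Benjamini-Hochberg over 17241 transcripts, with a threshold of 0.05. Counts of 66 same-group pairs of libraries differed by more than sampling noise. Intervals at 95% and floors of 3 counts cover counting error only. The fit was tested on simulated data for upper horn against body: it recovered 19 of 100 transcripts changed 2-fold and 55 of 100 changed 4-fold, with 1 false call. Unlike the data, the simulated counts had no heifer effect and no site difference other than these changes, so recovery in the data may differ.

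The members, the partner and marker lists and the tests were chosen with earlier results of these data known. Named genes are the members, their direct partners, up to 4 called partners per direction and comparison, and the 3 genes most like each member, of which 1 is not reported here. Alternatives were DESeq2 1.42.0, its size factors, no filter on low counts, no block, only the compared groups, summed rows per gene, and leaving out each heifer or the 3 libraries that stood apart.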

Additional observations from a re-analysis of the deposited data

Results flagged for a closer look

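Of 35 sets of libraries (5 genes in 7 groups), 7 held a library far from the others of its group. Chance would mark about 1 in 20 groups if CPM levels were normally distributed, which was not tested. NPPC in the ipsilateral ampulla and QRFPR in the contralateral ampulla were marked whatever their level, since only 1 library held counts. The 7 of 35 are therefore not read as an excess over chance. The same heifers recur, so these sets are not independent.

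PENK in the contralateral upper horn was at 249.5 CPM in heifer 11070, against 7.54 to 75.9 CPM in the other 4. NTS in the contralateral mid horn was at 26.9 CPM in heifer 10882, against 2.05 to 7.89 CPM, in the library that also held KRT5 at 453.6 CPM. OXTR was at 208.5 CPM in the contralateral upper horn of heifer 10872, against 38.2 to 78.1 CPM, and at 282 CPM in its body, against 24.2 to 64.2 CPM. The other 3 rest on few counts. NPPC in the ipsilateral ampulla was at 0.0866 CPM in heifer 11070 (2 counts, 0 in the other 4), OXTR there at 0.311 CPM in heifer 11033 (6 counts), and QRFPR in the contralateral ampulla at 0.131 CPM in heifer 11033 (2 counts, 0 in the other 4).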

How the results depend on the processing

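Values within the uterus are limited by 5 heifers and, for NPPC and NTS, by few counts. The calls over all transcripts moved most. DESeq2's Wald test called 17 for side in the ampulla, 22 in the upper horn and 21 in the mid horn, 23 for upper against mid horn, 12 for upper horn against body, 2714 for mid horn against body, and 1, 9 and 1 for the side interactions of upper horn with ampulla, mid horn with ampulla and upper with mid horn. With no filter on low counts these were, in the same order, 150, 173, 140, 207, 150, 2057, 40, 156 and 69. Without the replicate block, which pairs libraries of 1 heifer, edgeR called 1 for side in the ampulla, 0 in the upper horn, 1 for upper against mid horn and 1 for mid horn against body. With only the groups compared it called 0, 0, 1 and 3028. That setting was not run apart for ampulla against endometrium, which uses all groups. Mid horn against body gave 1276 with DESeq2 size factors and 1228 without the 3 libraries that stood apart, which left 0 for side in the upper horn. Leaving out 1 heifer gave 9741 to 11076 calls for ampulla against endometrium, 0 to 4 for side in the ampulla (0 without 10872, 1 without 11070), 0 to 8 in the upper horn (8 without 10872, 0 without 10882, 11070 or 11110), 0 to 1835 for mid horn against body (1835 without 10872, 2 without 11033, 0 without 10882 or 11070), 2 to 4 for upper horn against body (2 without 10882 or 11070) and 0 to 2 for upper against mid horn (0 without 10882, 11033 or 11070).

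Some small log2 values changed sign, none of them called. Without the block, NTS was -0.12 for side in the ampulla and 0.17 for mid horn against body, OXTR 0.033 for side in the mid horn and QRFPR -0.0082 for upper horn against body. For side in the upper horn NTS was 4.50e-05 with the Wald test, 0.014 with no filter and 0.30 without the 3 libraries, where QRFPR was -0.025. Without them NTS was -0.024 for side in the ampulla, QRFPR 0.011 for mid horn against body (0.0081 with no filter) and OXTR 0.045 for side in the mid horn, where it was 0.047 with the Wald test, 0.029 with DESeq2 size factors and 0.023 with summed rows. Leaving out 1 heifer moved NPPC from -0.61 to 0.13 for side in the mid horn and from -0.78 to 0.10 for upper horn against body. NTS ran from -0.31 to 0.42 for side in the ampulla, from -0.46 to 0.46 in the upper horn and from -0.54 to 0.40 for mid horn against body. OXTR ran from -0.33 to 0.17 for side in the mid horn. QRFPR ran from -0.0593 to 0.546 for side in the upper horn, from -0.0522 to 0.0946 for mid horn against body, from -0.23 to 0.24 for upper horn against body and from -0.20 to 0.29 for upper against mid horn. OGFR in ampulla against endometrium ran from -0.13 to 0.0075. The cause of these changes was not tested.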

Other observations

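The second rows of NPPC and OXTR were not used for the levels above. The second OXTR row held 9.85% of the gene's counts and lay at 4.74 to 18.1 CPM in the uterine libraries, against 0 to 0.523 CPM in the ampulla. The second NPPC row held 15.5% of the gene's counts, with 143 in all and none in 12 libraries.

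PENK and OXTR ranked the heifers differently, a feature picked after the values were seen. Over all uterine sites heifer 10872 had the lowest PENK, at 6.13 CPM, and the highest OXTR, at 235 CPM. Heifer 11070 had the highest PENK, at 140.3 CPM, and the lowest OXTR, at 58.3 CPM. QRFPR was also lowest in heifer 11070, at 56.6 CPM, and highest in heifer 10882, at 179.7 CPM. With 5 heifers this was not tested.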
